A study of Sorghum bicolor with 9 samples.

Results

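Carotenoid cleavage dioxygenases were followed in leaves of Sorghum bicolor under saline-alkali soil stress. They were taken as the genes that the deposited table labels RPE65, after the animal eye protein that shares their fold, with at least 10 reads summed over the 9 libraries. Of 13 genes with the label among 35281 genes in the table, 6 met that rule. The least covered gene inside it had 68 reads in all and the most covered gene outside it had 7. The table names no gene of the family beyond the label, so which member makes which product is not known here, and members are called by their locus identifiers.

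Carotenoid cleavage dioxygenases are iron-containing enzymes that cut a double bond in the carbon chain of a carotenoid. Within the plant family, the 9-cis-epoxycarotenoid dioxygenases act in plastids and release xanthoxin, the precursor of abscisic acid (ABA), and that cut is the committed step of ABA synthesis. ABA is the hormone through which plants close stomata and switch on many genes under drought and salt, and in Arabidopsis a dioxygenase gene of this branch is known to be induced by water deficit. Other branches cut carotenoids to volatile aroma compounds and pigments, set carotenoid content in leaves and petals, or begin the synthesis of strigolactones, hormones of shoot branching.

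RNA sequencing was done on leaves of the wild-type inbred line BTx623 when seedlings had 4 leaves. Controls were kept under normal conditions. Stressed plants grew in saline-alkali soil at pH 8.1, moderate with 3‰ salt and severe with 5‰ salt. Each group has 3 biological replicates, and no transgene or mutation was involved. The salt values follow the sample titles, while another tag gives the same digits in percent. The sources used here do not give the control soil's salt and pH, the length of the stress or the number of plants per replicate.

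Libraries held 17792497 to 22449989 assigned reads. Levels are given in CPM, a gene's reads as a share of the library's total on the usual scale, after scaling between libraries, with the mean ± SD over 3 libraries. A count of 0 in a library allows up to 3 reads, at most 0.286 CPM, for counting error only. The severe libraries stood apart: their replicates had a common biological variation of 60.8%, compared with 26.2% for moderate and 24.7% for control replicates. Scaling factors were 0.512, 0.858 and 0.973 in severe replicates 1 to 3 and 0.904 to 1.41 in the other 6. None of the leaf marker labels sought occurs in the table, so the tissue label could not be set against leaf markers. The 1 gene matched by a marker word was a model with a domain of pheophorbide a oxygenase, an enzyme of chlorophyll breakdown. This model also holds cytidine and deoxycytidylate deaminase domains, and which part its reads came from is not known. It was lower in severe than in control leaves (log2 change -1.22, edgeR adjusted p = 0.0181), and its part in the results was not tested. In whole leaves, fewer cells of a type and less RNA per cell cannot be told apart.

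The family was dominated by a pair of genes, and both were lower in severe leaves than in control leaves. Sobic.004G268500 fell about 32.3-fold in mean CPM and Sobic.001G509200 about 2.58-fold. The next pair, Sobic.005G002500 and Sobic.001G155300, had group means of 5.10 to 11.6 CPM and did not pass against control with all 9 libraries in the fit. Sobic.005G002500 was higher in severe than in moderate leaves, but not when libraries were scaled by total counts alone. The last pair, Sobic.002G168800 and Sobic.002G037400, was near the limit of detection in control leaves, and their reads came mostly from single stressed libraries. The other 7 genes with the label had 0 to 7 reads in all and none in any control library.

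**Figure D1:**
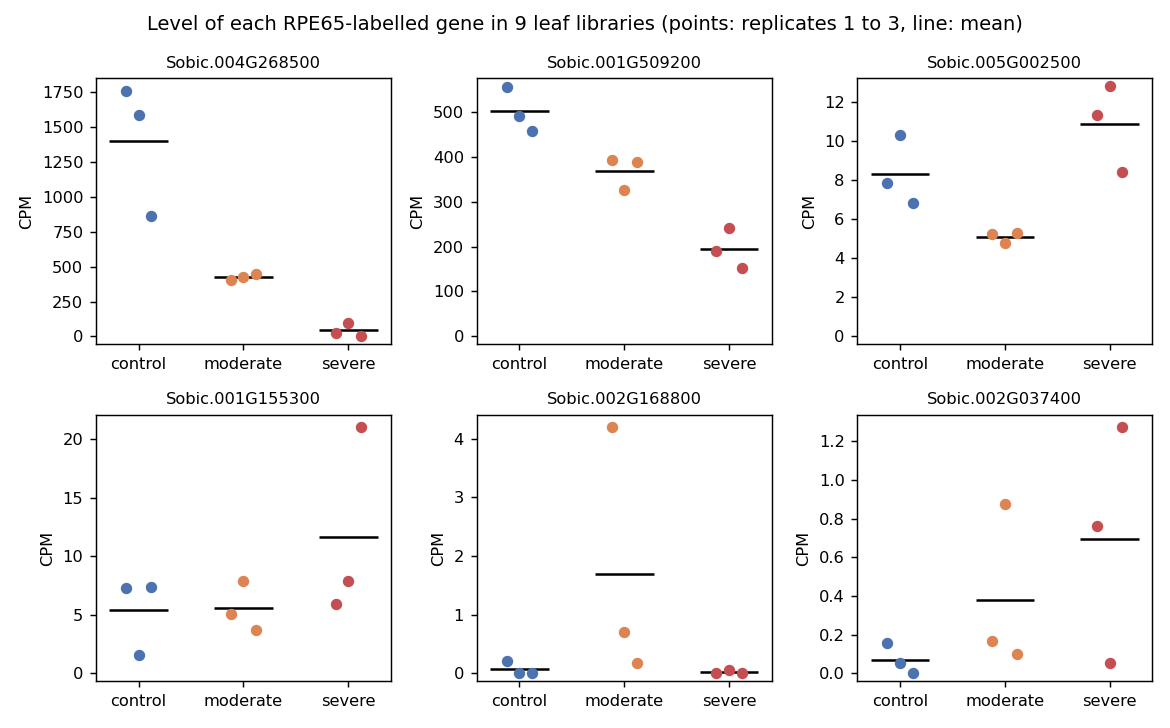
Level of the 6 genes in each library, in scaled CPM on a linear axis with its own range per gene. Points are replicates 1 to 3 from left to right and black lines are group means. Means of Sobic.004G268500 and Sobic.001G509200 step down from control to moderate to severe, with severe means of 43.5 and 194 CPM. Their step from control to moderate did not pass with all 9 libraries in the fit (edgeR adjusted p = 0.169 and 0.273). Sobic.002G168800 is raised in moderate replicate 1.

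Sobic.004G268500 lies on chromosome 4 from 61268235 to 61270278 on the plus strand, a span of 2044 bases. Positions are those of the deposited table, which gives no exons, and the sources used here name no genome build. Control libraries read 1762, 1585 and 867 CPM, moderate libraries 405, 429 and 451 CPM, and severe libraries 25.5, 99.2 and 5.90 CPM. The 3 groups did not overlap in any pairing, and severe libraries differed 16.8-fold among themselves.

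In severe leaves Sobic.004G268500 averaged 43.5 ± 49.2 CPM, against 1405 ± 474 CPM in control leaves (SD, n = 3 each). The log2 change was -5.01 (SE 0.92), with a 95% interval of -7.07 to -2.95 and an adjusted p of 0.00118 (edgeR quasi-likelihood F-test, Benjamini-Hochberg adjustment over all 22356 genes tested). A lower log2 change was found in 3.97% of all tested genes. Its size rested on severe replicates 2 and 3: the log2 change was -6.50 without replicate 2 and -4.41 without replicate 3, and it passed both times (adjusted p = 0.000249 and 0.000701).

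The step from moderate to severe soil also passed. Severe leaves were lower than moderate leaves in Sobic.004G268500 by a log2 change of -3.30 (SE 0.84, 95% interval -5.19 to -1.40), with edgeR adjusted p = 0.00767. Without severe replicate 2 this log2 change was -4.78 and without severe replicate 3 it was -2.72.

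Between moderate and control leaves, Sobic.004G268500 averaged 428 ± 23.1 CPM and 1405 ± 474 CPM, a log2 change of -1.71 (SE 0.79, 95% interval -3.50 to 0.07). This did not pass with all 9 libraries in the fit (edgeR adjusted p = 0.169). It passed in a fit of only the 6 libraries compared and in one that left out severe replicate 3, with log2 changes of -1.69 in both (adjusted p = 0.00238 and 0.0437). In the authors' deposited table, this gene had a log2 fold change of -1.70 with an adjusted p of 2.09e-09, where 36.3% of 27533 genes were under 0.05.

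Many abundant leaf transcripts moved in the same direction. Of 204 tested genes with a control mean of at least 500 CPM, 154 were lower and 6 higher in severe than in control leaves, with a median log2 change of -2.62. Sobic.004G268500 fell further than that median, and 38 of the 204 fell further still. Sobic.001G509200, also among the 204 with a control mean of 501 CPM, fell less than the median in severe leaves (log2 change -1.37). Under moderate stress the median of the 204 was -1.54, 102 were lower and 0 higher, and 89 had a lower log2 change than Sobic.004G268500. Sobic.001G509200, at -0.44, again lay above the median. These genes were selected on their control level after the data were seen, so their direction is in part set by the selection.

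Sobic.001G509200 lies on chromosome 1 from 77716678 to 77723304 on the plus strand, a span of 6627 bases. Control libraries read 554, 491 and 457 CPM, moderate libraries 392, 327 and 387 CPM, and severe libraries 191, 240.1 and 151 CPM. As for Sobic.004G268500, the 3 groups did not overlap in scaled CPM in any pairing, but replicates were closer, within 1.59-fold in severe leaves. Between moderate and control leaves this rests on the scaling. Raw reads there overlapped, at 9437, 9713 and 11568 in moderate and 10462, 9675 and 9045 in control libraries.

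In severe leaves Sobic.001G509200 averaged 194 ± 44.4 CPM, against 501 ± 48.9 CPM in control leaves (SD, n = 3 each). The log2 change was -1.37 (SE 0.26, 95% interval -1.96 to -0.77), with edgeR adjusted p = 0.00156. A lower log2 change was found in 30.3% of all tested genes. Against moderate leaves, at 368 ± 36.1 CPM, the log2 change of Sobic.001G509200 was -0.92 (SE 0.26) with adjusted p = 0.0122. Between moderate and control leaves the log2 change of -0.44 (SE 0.26, 95% interval -1.02 to 0.14) did not pass (adjusted p = 0.273), passed with only the 6 libraries compared (adjusted p = 0.0479) and was 0.04 when libraries were scaled by total counts alone. The authors' deposited DESeq2 values there were -0.43 with an adjusted p of 0.0188, where 36.3% of 27533 genes were under 0.05.

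**Figure D2:**
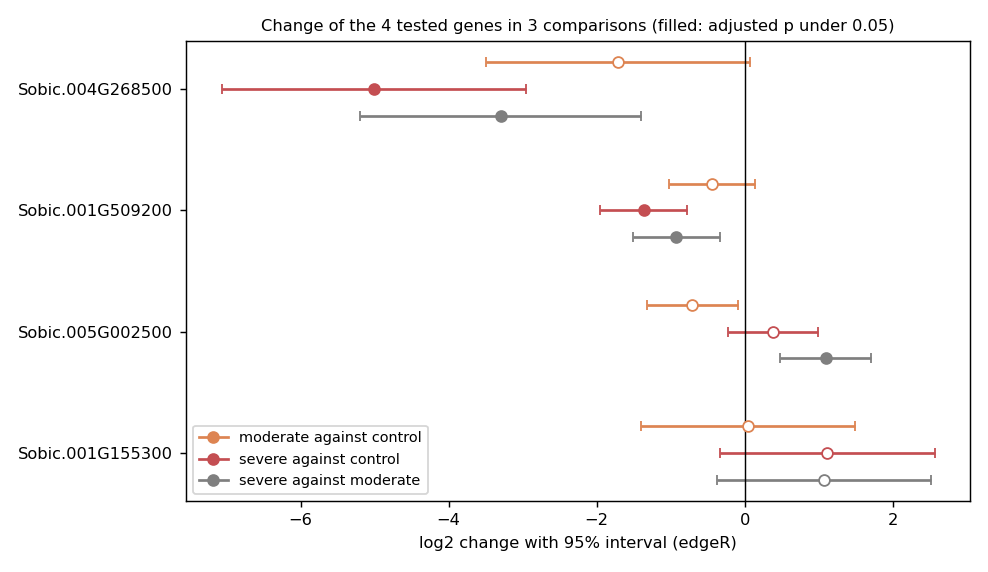
Log2 change of the 4 genes that passed the low-count filter, in 3 comparisons, with 95% intervals from edgeR's quasi-likelihood fit. Filled points have an adjusted p under 0.05. Sobic.004G268500 has the widest intervals, at -5.01 for severe against control, and Sobic.005G002500 changes side between moderate and severe.

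The make-up of the family shifted with them. Sobic.004G268500 gave 75.6, 75.9 and 64.8% of RPE65-labelled reads in control libraries, 49.9, 55.7 and 53.2% in moderate libraries and 10.9, 27.5 and 3.13% in severe libraries. For counting error only, the 95% Wilson intervals in severe libraries were 9.71 to 12.2%, 26.5 to 28.6% and 2.58 to 3.78%, far narrower than the spread between those replicates. Sobic.001G509200 gave 23.5 to 34.2% in control, 42.4 to 48.3% in moderate and 66.7 to 81.4% in severe libraries, so it was the most read gene of the family in all 3 severe libraries. The remaining genes together gave 0.571 to 1.06%, 1.12 to 1.87% and 5.80 to 16.6% in control, moderate and severe libraries.

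The ratio of both genes' reads within a library does not depend on scaling between libraries. Reads of Sobic.004G268500 per read of Sobic.001G509200 were 3.18, 3.23 and 1.90 in control libraries, 1.03, 1.31 and 1.17 in moderate libraries and 0.134, 0.413 and 0.039 in severe libraries. None of the groups overlapped. A 2-sided exact permutation test on the log ratio gave p = 0.1 for each of the 3 comparisons, the smallest p that 3 against 3 libraries allow. The severe mean of 0.195 was 0.0863 without severe replicate 2. The ratio was thus lower in every severe library than in any moderate one, and lower in every moderate library than in any control one.

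**Figure D3:**
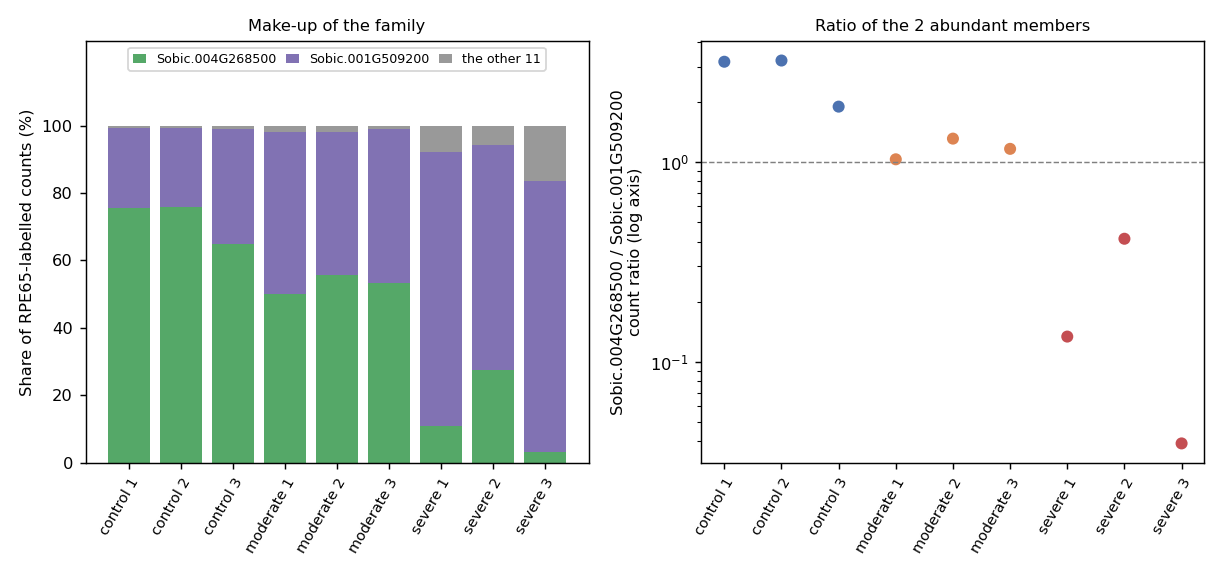
Left, share of reads of all 13 RPE65-labelled genes taken by Sobic.004G268500, Sobic.001G509200 and the other 11, in percent, per library. Right, reads of Sobic.004G268500 per read of Sobic.001G509200 on a log axis, with a dashed line at equal reads. Control libraries lie at 1.90 to 3.23, moderate libraries at 1.03 to 1.31 and severe libraries at 0.039 to 0.413.

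The whole family took 0.136 to 0.211% of assigned reads in control libraries, 0.108 to 0.113% in moderate libraries and 0.012 to 0.0309% in severe libraries. Divided by gene length, the authors' deposited FPKM values put Sobic.004G268500 at 665 ± 222 FPKM in control, 202 ± 9.53 in moderate and 22.1 ± 24.2 in severe leaves. Sobic.001G509200 was at 73.2 ± 7.10, 53.8 ± 5.51 and 30.6 ± 7.71 FPKM in control, moderate and severe leaves. On that scale Sobic.004G268500 was above Sobic.001G509200 in every control and moderate library, and in severe leaves it was above in replicate 2 and below in replicates 1 and 3. By mean FPKM over all 35281 genes, Sobic.004G268500 ranked 78th in control, 128th in moderate and 3428th in severe leaves. The length used for FPKM is the genomic span with introns, so a gene with long introns reads low on this scale. The order of both genes and the ranks over all genes depend on that length.

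Sobic.005G002500 lies on chromosome 5 from 202329 to 204425 on the minus strand. It read 7.88, 10.3 and 6.82 CPM in control, 5.23, 4.78 and 5.28 CPM in moderate and 11.3, 12.8 and 8.45 CPM in severe libraries. After scaling, moderate libraries lay below all others, while severe and control libraries overlapped. Raw reads of all groups overlapped, at 149, 203 and 135 in control, 126, 142 and 158 in moderate and 119, 240 and 146 in severe libraries.

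Severe leaves, at 10.9 ± 2.22 CPM, were higher in Sobic.005G002500 than moderate leaves, at 5.10 ± 0.278 CPM (SD, n = 3 each), by a log2 change of 1.09 (SE 0.28) with edgeR adjusted p = 0.00712. Scaled by total counts alone, that change was 0.27 and did not pass (adjusted p = 0.539). That scaling moves the median log2 change of all tested genes by -0.78 in this comparison, by 0.48 in moderate against control and by -0.30 in severe against control. Against control leaves, at 8.34 ± 1.78 CPM, the log2 changes of -0.71 (SE 0.27) in moderate and 0.38 (SE 0.27) in severe leaves did not pass (adjusted p = 0.106 and 0.238). With only the 6 libraries compared, the moderate difference passed (adjusted p = 0.0285). The authors' deposited DESeq2 values for it were -0.69 with an adjusted p of 0.0154, where 36.3% of 27533 genes were under 0.05.

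Some reads counted for Sobic.005G002500 may be uncertain in origin. The gene Sobic.005G002600, on the plus strand, overlaps it over 671 of its 2097 bases. Strand-specific counting and the handling of reads shared by both genes are not stated, so how reads there were assigned is not known. Sobic.005G002600 was at 10.6 ± 2.72 CPM in control, 5.25 ± 0.619 in moderate and 11.3 ± 2.28 in severe leaves. Its log2 change was 1.11 for severe against moderate (edgeR adjusted p = 0.00777) and 0.10 for severe against control, which did not pass (adjusted p = 0.765). For moderate against control it was -1.01 and passed (adjusted p = 0.0388), where that of Sobic.005G002500 did not. No other RPE65-labelled gene overlaps another gene of the table.

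Sobic.001G155300 lies on chromosome 1 from 12561395 to 12563230 on the minus strand. It read 7.25, 1.57 and 7.33 CPM in control, 5.06, 7.87 and 3.71 CPM in moderate and 5.90, 7.90 and 21.1 CPM in severe libraries. All 3 groups overlapped and severe replicate 3 was the highest library. In severe leaves it averaged 11.6 ± 8.23 CPM, against 5.38 ± 3.30 CPM in control leaves, a log2 change of 1.11 (SE 0.65, 95% interval -0.34 to 2.57) that did not pass (edgeR adjusted p = 0.152). That change was 0.41 without severe replicate 3. In moderate leaves it averaged 5.55 ± 2.12 CPM and the log2 change against control was 0.04 (SE 0.64, adjusted p = 0.974). The interval for severe leaves covers both a fall and a rise larger than the one measured.

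The remaining members did not pass the filter on low counts, which kept 22356 genes and 4 of the 6 members. A gene can pass that filter through the group in which it is high, so those 4 are not a sample of the family. Sobic.002G168800, on chromosome 2 from 53189952 to 53202997 on the minus strand, had 4, 0 and 0 reads in control, 101, 21 and 5 reads in moderate and 0, 1 and 0 reads in severe libraries. The moderate total of 127 reads is 22.1 times the control total of 4 after scaling, with a 95% counting interval of 8.44 to 82.5. Moderate replicate 1 carried most of it, and without that library the ratio was 6.36 (2.21 to 25.1). In CPM, moderate replicate 3 (0.167) lay below control replicate 1 (0.212), so these groups overlapped.

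With no low-count filter, Sobic.002G168800 did not pass for moderate against control (log2 change 4.51, edgeR adjusted p = 0.0626), and severe leaves were lower than moderate leaves (log2 change -5.99, adjusted p = 0.0125), where 11.4% and 49.8% of 29764 genes passed. DESeq2 called both (adjusted p = 0.0284 and 0.00339), where it called 23.1% and 59.9% of genes. In the authors' deposited table this gene had log2 fold changes of 4.61 and -6.10 in these comparisons, with adjusted p-values of 0.00354 and 0.00119, where 36.3% and 51.5% of genes were under 0.05. Another RPE65-labelled gene, Sobic.002G168700, lies 61.1 kb away on the same strand with 1 gene between them, and it had no read in any library.

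Sobic.002G037400, on chromosome 2 from 3667938 to 3669659 on the plus strand, had 3, 1 and 0 reads in control, 4, 26 and 3 reads in moderate and 8, 1 and 22 reads in severe libraries. Most moderate reads came from replicate 2 and most severe reads from replicate 3, and all groups overlapped in CPM. The severe total of 31 reads is 9.73 times the control total of 4 after scaling, with a 95% counting interval of 3.44 to 37.9, and 4.49 without severe replicate 3. With no low-count filter it did not pass in edgeR's quasi-likelihood test (adjusted p = 0.0667 for severe against control, where 52% of genes passed), while DESeq2 gave an adjusted p of 0.0305, where it called 62.4% of genes.

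The 7 genes below 10 reads are Sobic.002G380550, with 1 read in moderate and 6 in severe libraries, Sobic.006G170300 with 5 and 1, Sobic.003G293600 with 5 and 0, Sobic.007G170300 with 2 and 1, Sobic.010G050300 with 0 and 2, and Sobic.002G168700 and Sobic.005G105700 with none. All 7 had 0 reads in control libraries. The highest counts in a library were 5 reads, for Sobic.002G380550 in severe replicate 3 and for Sobic.003G293600 in moderate replicate 2, and 4 for Sobic.006G170300 in moderate replicate 3. All other counts were at or below the 3 reads that a count of 0 allows in a library.

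Over the 4 tested members, 0 passed for moderate against control, where 17.1% of 22356 genes passed, 8.94% as higher and 8.17% as lower. The count was 1 at an unadjusted p under 0.05, where 32.6% of genes were. DESeq2 called 0 of these 4 and 23.1% of its genes, and over all 6 members it called 1, Sobic.002G168800, as higher. The count was 3, all lower, with only the 6 libraries compared, where 45% of 21109 genes passed, 22.2% as lower. The authors' deposited DESeq2 adjusted p-values were under 0.05 for Sobic.004G268500 (2.09e-09), Sobic.001G509200 (0.0188) and Sobic.005G002500 (0.0154), all lower. They were not for Sobic.001G155300 (0.952), and 36.3% of 27533 genes were under 0.05. For severe against control 2 fell and 0 rose, where 66.5% of genes passed, 34.9% as lower and 31.6% as higher. For severe against moderate 2 fell and 1 rose, where 63.2% passed, 33.6% as lower and 29.6% as higher. In scaled CPM, groups did not overlap in 3, 2 and 3 of the 4 in these comparisons, against 55.9, 72.1 and 69.6% of all tested genes. The median log2 change of the 4 was -0.58, -0.49 and 0.07, beside medians of 0.01, -0.19 and -0.20 over all tested genes. The comparisons against control share the control libraries.

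**Figure D4:**
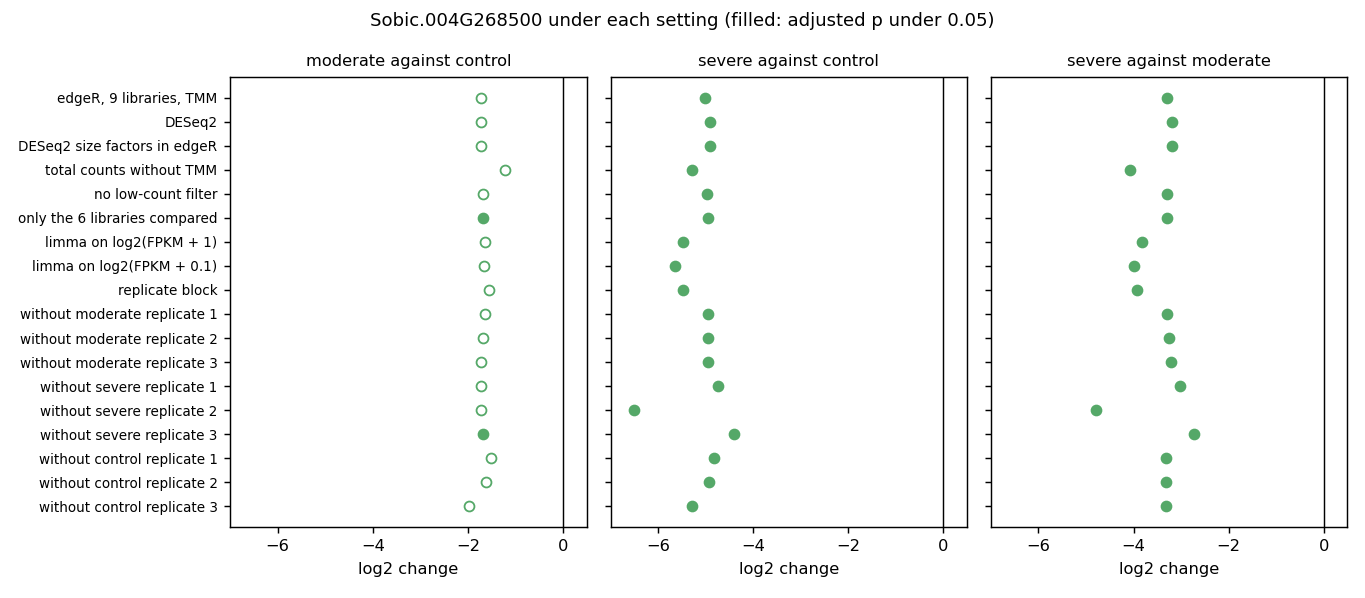
Log2 change of Sobic.004G268500 in the 3 comparisons under each way of fitting, filled where the adjusted p is under 0.05. Every setting keeps the sign. For moderate against control only the fits on the 6 libraries and without severe replicate 3 pass, and for severe against control the values run from -6.50 to -4.41.

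Over the 9 libraries, Sobic.004G268500 and Sobic.001G509200 moved together on the scale of log2(CPM + 1), with a Pearson r of 0.986 that includes the differences between groups. Sobic.001G155300 had negative r with both (-0.67 and -0.63), but it passed in no comparison. It was highest in severe replicate 3, the library in which both were lowest. The tested gene most like Sobic.004G268500 was Sobic.006G097500 (r = 0.997), whose label FAD_binding_3 marks flavin-dependent monooxygenases. It averaged 1032 ± 129 CPM in control, 568 ± 32.9 in moderate and 196 ± 110 CPM in severe leaves. Sobic.002G088200 (r = 0.996) and Sobic.006G021600 (r = 0.995) came next and have no family label. With 1659 of 22355 genes above r = 0.9, such likeness was common in these libraries.

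For Sobic.001G509200 the genes most alike were Sobic.001G093500 (r = 0.992), Sobic.002G421900 (r = 0.991), labelled as a Dof-type zinc finger factor, and Sobic.003G230400 (r = 0.991), and 1984 genes were above 0.9. For Sobic.005G002500 they were Sobic.008G070500 (r = 0.975), the kinesin-labelled Sobic.008G000800 (r = 0.971) and Sobic.002G345700 (r = 0.969), with 90 genes above 0.9. For Sobic.001G155300 they were Sobic.003G060600 (r = 0.923), Sobic.008G008300 (r = 0.908) and Sobic.010G165500 (r = 0.894), with 2 genes above 0.9.

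Enzymes before and after carotenoid cleavage are not named in the table, and only families that contain them beside many unrelated enzymes could be counted. Of 20 tested genes labelled Amino_oxidase, the family with the carotenoid desaturases that precede cleavage, 0 rose and 4 fell in moderate and 3 rose and 12 fell in severe against control leaves, with median log2 changes of -0.29 and -1.63. That is 20% and 75% of the 20, beside 17.1% and 66.5% of all tested genes. Sobic.002G383400 had log2 changes of -3.69 and -2.34, Sobic.003G137100 of -1.84 and -2.54, and Sobic.001G018000 of -1.33 and -3.28 for moderate and severe against control, and all passed. The furthest fall in severe leaves was in Sobic.001G472000, at 20.1 ± 22.8 CPM in severe leaves against 790 ± 128 CPM in control leaves (log2 change -5.29, edgeR adjusted p = 0.000508). Of 9 tested FAD_binding_3 genes, the family with zeaxanthin epoxidase, which makes the epoxycarotenoids upstream of ABA, 1 rose and 0 fell in moderate and 2 rose and 3 fell in severe against control leaves. These are 11.1% and 55.6%, beside 17.1% and 66.5% of all tested genes, and 9 genes are too few to read as a result about the family. Among the 3 that fell were Sobic.010G181100, with a log2 change of -3.02 (edgeR adjusted p = 0.000125), and Sobic.006G097500, with -2.39 (adjusted p = 0.000922). Sobic.004G181000 was among the 2 that rose, with 3.56 (adjusted p = 0.0189).

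On the side after cleavage, of 46 tested short-chain dehydrogenases (adh_short), the family with the enzyme that oxidises xanthoxin, 4 rose and 4 fell in moderate and 8 rose and 22 fell in severe against control leaves. These are 17.4% and 65.2% of the 46, near the 17.1% and 66.5% of all tested genes. The direction in severe leaves was less even than over all tested genes, of which 34.9% fell and 31.6% rose. The median log2 change of the 46 was -1.20 in severe against control leaves, beside -0.19 over all tested genes. In severe against control leaves, log2 changes that passed included -9.46 in Sobic.004G304000, -6.02 in Sobic.001G206200, 3.98 in Sobic.006G158600 and 3.95 in Sobic.006G134100. All 3 genes with the MOSC or MOSC_N label, domains found in the sulfurase of the molybdenum cofactor that ABA-aldehyde oxidase needs, fell in severe against control leaves, by log2 changes of -1.85 in Sobic.002G296900, -1.35 in Sobic.002G297000 and -0.82 in Sobic.010G224000, and 0 of 3 passed in moderate against control. Both Sobic.002G296900 and Sobic.002G297000 carry the MOSC_N label. With 34.9% of all tested genes lower in severe than in control leaves, 3 genes are too few to read as a result about the family. Of 191 cytochromes P450, the family with the enzymes that hydroxylate ABA for breakdown, 34 rose and 12 fell in moderate and 62 rose and 59 fell in severe against control leaves, or 24.1% and 63.4%. Among those that rose, Sobic.007G003500 read 4971, 2003 and 38.5 CPM in severe libraries, against at most 0.101 CPM in control libraries (edgeR adjusted p = 0.000767). Among those that fell, Sobic.002G272700 read 0 CPM in every severe library, against 374 ± 32.3 CPM in control leaves (log2 change -15.9, edgeR adjusted p = 6.49e-06). With only the 6 libraries compared, 9, 4, 19, 3 and 90 genes of these 5 families passed for moderate against control, in the order given, beside 45% of all genes. The families were chosen after the data were seen, and a family label does not separate enzymes of carotenoids or ABA from the rest.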

How the data were processed

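The counts deposited by the authors, whole numbers per gene and library, were used for every main result. Per the submitters' processing notes, reads were aligned with HISAT2 2.0.5 and fold changes made with DESeq2 1.20.0. The sources used here name no read counter, strandedness or genome build. The authors' deposited FPKM divide counts by gene length, which equals the genomic span for 34397 of 35281 genes. The log2 fold changes and adjusted p-values deposited by the authors are quoted only where named.

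The tests were run with edgeR 4.0.16 under R 4.3.3 on counts filtered by filterByExpr over the 3 groups, scaled by TMM and fitted with 1 mean per group over all 9 libraries. The quasi-likelihood F-test was 2-sided with Benjamini-Hochberg adjustment over 22356 genes and a threshold of 0.05. SE is the absolute log2 change divided by the square root of F. Alternatives used DESeq2 1.42.0, limma 3.58.1 on log2(FPKM + 1) and log2(FPKM + 0.1), other scalings, no filter, 6 libraries, a replicate block and leaving out each library. The edgeR script was first tested on simulated data, with changes in moderate libraries only and equal spread in all groups. That test did not cover the wider spread of the severe libraries. Ratios of untested genes carry exact binomial 95% intervals on reads pooled over the libraries of a group. They cover counting error only and leave out the spread between replicates.

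Every member was named. Like genes were the 3 with the highest r per tested member, and genes of the pathway lists if called with a mean of at least 5 CPM, up to 4 per list. The words and labels sought for pathway lists matched 0 genes and those for cell types 1 gene. Only 254 of 35281 genes carry a description, so the words could match few genes. The 1 match, a model with pheophorbide a oxygenase and deaminase domains, was at 3.34 ± 1.45 CPM in severe, 8.00 ± 2.14 in moderate and 7.87 ± 1.44 in control leaves. The families given in place of the pathway lists, and which of their genes are printed, were chosen after their values were seen. Members and lists were chosen with earlier results of these data known. The labels call the libraries biological replicates and do not say whether they are single plants or pools. No sequence was given for these genes, so none is shown.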

Additional observations from a re-analysis of the deposited data

How the results depend on the processing

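With only the 6 libraries of moderate and control leaves in the fit, 9503 genes and 3 members of the family passed, against 3825 and 0 with all 9, in a fit that filters and scales anew. DESeq2 on all 9 libraries called 5919 genes for moderate against control. Leaving out 1 library at a time gave 1488 to 7368 genes and 0 to 1 members for moderate against control, 13278 to 15289 and 2 for severe against control, and 11982 to 14584 and 3 for severe against moderate. The log2 change of Sobic.001G509200 for moderate against control, -0.44, turned to 0.039 with total counts, and that of Sobic.001G155300, 0.04, ranged from -0.40 to 0.33 with 1 library left out, with -0.40 without control replicate 2 and -0.28 without moderate replicate 2. None of these was called. The cause was not tested.

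Samples with the same replicate number were not paired by the labels, and correlations of their deviations from the group means ran from -0.04 to 0.26 over the 3 comparisons, not all above 0.1. With a replicate block, 3533 genes and 0 members passed for moderate against control, 14606 and 2 for severe against control, and 13915 and 3 for severe against moderate, so the counts of members called were as without it. Without the minimum of 10 reads the family holds 13 genes, or 11 with at least 1 read. For the 7 labelled genes under 10 reads, most counts lie within the 3 reads that a count of 0 allows.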
